A study of Rattus norvegicus with 22 samples.

Results

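Epicardial and mesothelial markers are genes of the thin epithelium that covers the heart and lines the body cavities. Here they are 10 genes: the keratins Krt7, Krt8, Krt18 and Krt19, the surface proteins Muc16 and Msln, the uroplakins Upk3b and Upk1b, the transcription factor Wt1 and the membrane protein Lrrn4. They were taken by gene name from the array annotation, which gave 13 of the 26881 probes that passed the filter on dim signal and 10 of the 23262 genes tested. The list was drawn up with measured values of these arrays in view and is treated here as selected on the difference between stretched and control tissue, so the stretch values of the members are given as a description with no test.

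The arrays measured total RNA of engineered cardiac tissues, cylindrical constructs of heart cells and matrix whose ends are held by anchors. All 4 groups were made from Sprague Dawley rat embryo ventricle of gestational day 14.5 and cultured for 7 days. From culture day 5 the control tissues (n = 7) had no stretch and no inhibitor, the stretch tissues (n = 7) were stretched along 1 axis at 0.5 Hz and 5% elongation for 48 h, the BIRB796 tissues (n = 4) had 10 µM of that compound for 48 h without stretch, and the last group (n = 4) had stretch with BIRB796. BIRB796 inhibits the p38 mitogen-activated protein kinase (MAPK), a stress-activated kinase, per the treatment protocol, while the series title names tyrosine kinase. The cells are a mixture from whole ventricle and were not sorted, and the replicates are called biological in the series text without a culture or litter for each, so a p-value here speaks of the spread between tissues as sampled, which may be partly technical.

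The epicardium arises from the proepicardium, spreads over the embryonic heart as a single sheet, and gives rise to fibroblasts and smooth muscle cells through an epithelial to mesenchymal transition. The sheet carries the simple epithelial keratins, which pair a type II chain (Krt7, Krt8) with a type I chain (Krt18, Krt19) to form filaments. Mesothelial cells also display Msln, a glycosylphosphatidylinositol-anchored protein that binds the large membrane mucin Muc16, and Wt1 is a zinc finger transcription factor needed for epicardial development.

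The 22 arrays were scanned in 3 sessions, and the comparisons follow that layout. The first 3 replicates of control and of stretch made up session 1. Session 2 consisted of stretch replicates 4 to 7 without any other group, and the remaining controls, replicates 4 to 7, were scanned in session 3 beside both BIRB796 groups. Session 1 had the brightest arrays, with a 75th percentile of the signal of 1870 to 3062 and 82.6% to 91.3% of probes well above background. Session 2 had 510 to 1429 and 65.5% to 73.1%, and session 3 had 1237 to 2134 and 71.4% to 79.9%. Stretch replicate 7 was the dimmest array, and stretch replicates 4 and 5 differed by less than the noise between repeated spots and were counted as 1 sample in fits that held session 2, apart from 1 alternative that kept them apart. Levels below are log2 signals relative to the array's 75th percentile, so 0 is the brightness of that percentile and each unit is a 2-fold step. Levels are compared between arrays for 1 probe and not between genes. The Krt18 signal less the Krt8 signal and the sums over lists join probes, and they too are compared only between arrays. All 12 cardiomyocyte markers of a list were above background on at least 1 array of every group, and none of them passed the test in the 3 comparisons of session 3.

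The 4 members whose probes the results turn on most were read through these 60-base oligonucleotides of the array, given 5′ to 3′ as the deposited files hold them. The Krt7, Krt19 and Muc16 probes carry the 3 calls described next, and the Krt8 probe, spotted 10 times, carries the partner chain of Krt18.
Krt7: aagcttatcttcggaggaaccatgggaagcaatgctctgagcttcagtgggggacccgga
Krt8: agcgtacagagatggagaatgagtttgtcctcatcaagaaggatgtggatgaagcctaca
Krt19: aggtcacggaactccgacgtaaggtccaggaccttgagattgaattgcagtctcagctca
Muc16: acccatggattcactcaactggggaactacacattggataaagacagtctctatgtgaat
The files place the Krt19 probe at chr10:89081437-89081496 and the Muc16 probe at chr8:16602558-16602617 of rat build rn4, both on the minus strand. The Krt8 probe is placed at chr7:140716967-140717949, also on the minus strand, a span of 983 bases for 60 bases of sequence. The files give the Krt7 and Krt18 probes no position, and start the Krt7 probe at base 1254 and the Krt18 probe at base 1309 of their transcripts. The other members were read at chr10:15017206-15017265 (Msln), chr12:21746939-21746998 (Upk3b), chr11:63767255-63767314 (Upk1b), chr3:90577175-90577234 (Wt1) and chr3:120667859-120667918 (Lrrn4). The annotation of build rn4 was not used here, so exons are not named.

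Tissue kept in BIRB796 had less RNA of the keratins Krt7 and Krt19 and of the mucin Muc16 than control tissue of the same session, and this held with stretch added to the inhibitor. In BIRB796 versus control, the log2 differences that passed the test were -2.02 ± 0.33 (SE) for Krt7, -1.62 ± 0.25 for Krt19 and -2.95 ± 0.49 for Muc16, where 3 of 4 BIRB796 arrays were not above background. With slide as a random block the Krt19 call stood (adjusted p = 0.0468; limma), while Krt7 and Muc16 came to an adjusted p of 0.0737 each, and with slide as a fixed block none of the 3 was called. Of the other 7 members, 6 had negative differences from -0.70 to -2.09 that did not pass the test, and Krt18 stood at 0.12 ± 0.38. The 3 of 10 members called as lower compare with 93 of 23262 genes called lower (0.400%) and 142 called in either direction (0.610%, with 0.211% higher; limma over all genes, Benjamini-Hochberg adjusted p under 0.05). Muc16 passed the filter on dim probes through control and stretch arrays in the main, with 1 of 8 inhibitor arrays above background, so the filter bears on its call, and 2 of the other 9 members were called. The median difference was -1.60 over the members and 0.01 over all genes, and 9 of 10 members were negative against 47.9% of all genes. In bulk tissue, fewer cells of a type and less RNA per cell cannot be told apart. The BIRB796 comparisons rest on control replicates 4 to 7, which were also among the controls of the earlier stretch comparison, and the members were chosen with earlier results of these arrays known.

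**Figure D1:**
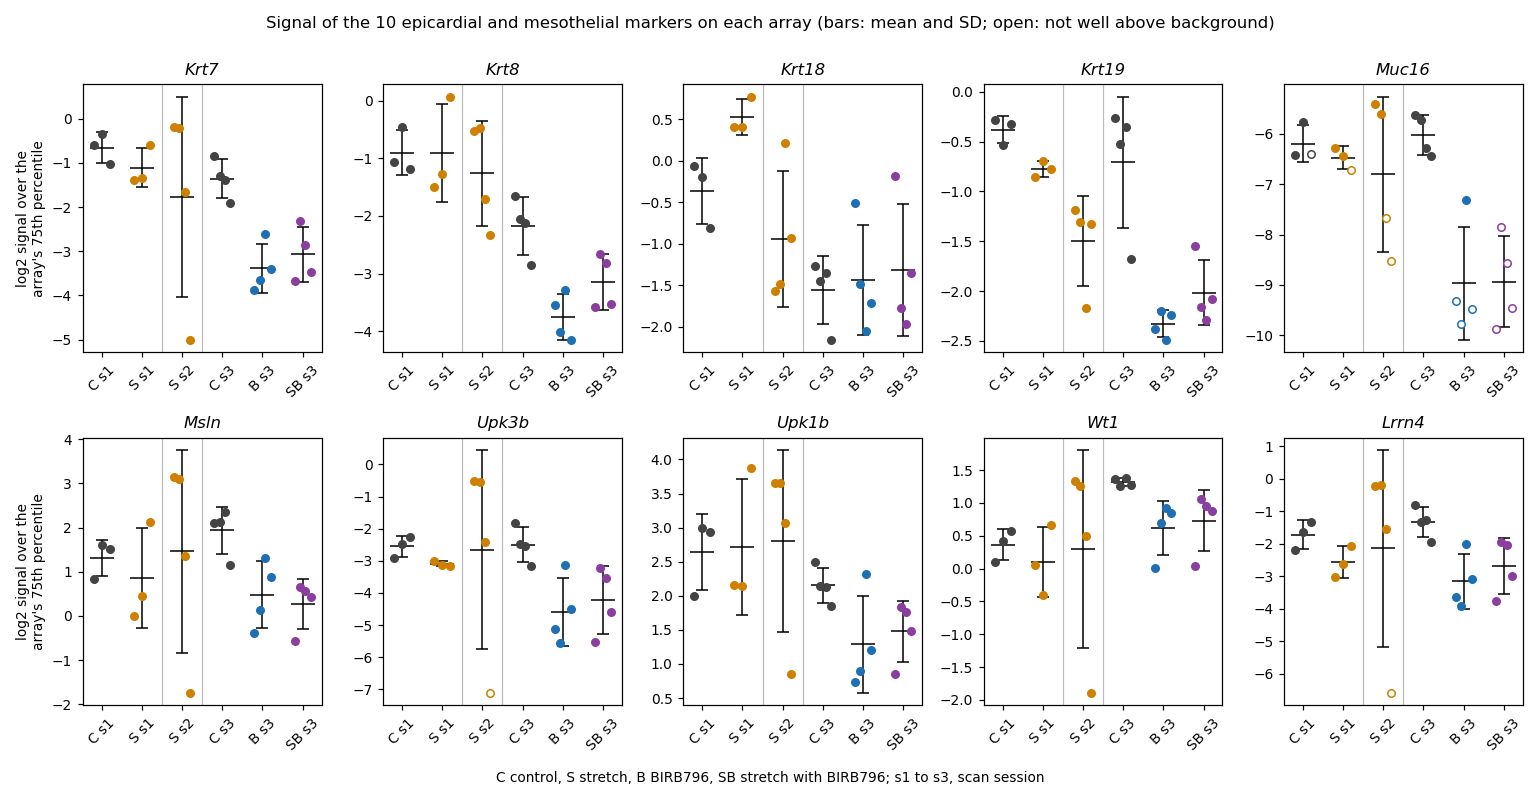
Log2 signal over the array's 75th percentile of each member on every array, by group and scan session, with the mean and SD of each group as bars and open points for spots not well above background. In session 3 all 8 arrays with BIRB796 lie below all 4 controls for Krt7, Muc16 and Wt1, and in session 2 stretch replicate 7 lies far below the other stretch arrays for Krt7, Upk3b, Wt1, Msln and Lrrn4.

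Of the keratins, Krt7 and Krt19 were called in both comparisons with controls, and Krt8 and Krt18 in neither. This parts them by the threshold and not by size. In BIRB796 the difference of Krt8 was near that of Krt19, at -1.58 ± 0.36 and -1.62 ± 0.25, while Krt18 stood at 0.12 ± 0.38. Krt7, a type II chain of simple ductal and mesothelial epithelia, stood at -0.85, -1.30, -1.38 and -1.92 in control replicates 4 to 7, at -3.88, -3.65, -2.62 and -3.40 in BIRB796 replicates 1 to 4 and at -3.67, -2.31, -2.85 and -3.46 in stretch with BIRB796 replicates 1 to 4. The groups did not overlap, and the highest inhibitor array was still below the lowest control. The difference was 4.07-fold in BIRB796 (limma, adjusted p = 0.0260) and 3.27-fold in stretch with BIRB796 (adjusted p = 0.0182).

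Krt19, the small type I chain often paired with Krt7, stood at -0.27, -0.53, -0.35 and -1.68 in control replicates 4 to 7. It stood at -2.38, -2.20, -2.49 and -2.24 in BIRB796 and at -1.54, -2.16, -2.29 and -2.08 in stretch with BIRB796. All 4 BIRB796 arrays were below every control, whereas stretch with BIRB796 replicate 1 overlapped with control replicate 7, which lay far below the other controls. Krt19 had the tightest BIRB796 group among the members, with an SD of 0.13 (n = 4) around a mean of -2.33, and was 3.08-fold lower in BIRB796 (limma, adjusted p = 0.0226) and 2.48-fold lower in stretch with BIRB796 (adjusted p = 0.0155). Its calls depended on the controls: leaving out control replicate 4, 5 or 6 ended both, leaving out replicate 7 gave an adjusted p of 0.000102 and 0.00019, and over all 32 alternatives the highest adjusted p was 0.246 and 0.103.

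Krt8, the type II chain that forms filaments with Krt18, stood at -1.65, -2.06, -2.12 and -2.86 in control replicates 4 to 7, at -3.55, -4.02, -3.29 and -4.15 in BIRB796 and at -3.59, -2.66, -2.81 and -3.54 in stretch with BIRB796. All BIRB796 arrays were below every control, and the stretch with BIRB796 arrays overlapped with control replicate 7. The difference of -1.58 ± 0.36 in BIRB796 missed the threshold (limma, adjusted p = 0.0553), as did that of -0.98 ± 0.36 in stretch with BIRB796 (adjusted p = 0.148). Leaving out control replicate 7 brought Krt8 past the threshold in BIRB796 (adjusted p = 0.0179).

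Krt18, the type I partner of Krt8, was the exception among the members. It stood at -1.26, -1.45, -1.35 and -2.16 in control replicates 4 to 7, at -0.51, -1.48, -2.05 and -1.71 in BIRB796 and at -0.19, -1.77, -1.97 and -1.35 in stretch with BIRB796. The 3 groups overlapped over nearly their whole range, and replicate 1 of each inhibitor group, both on slide 6, stood above every control. The differences were 0.12 ± 0.38 in BIRB796 and 0.24 ± 0.38 in stretch with BIRB796 (limma, adjusted p = 0.968 and 0.842), and the sign turned under the replicate block, at -0.33 and -0.21. Within an array, the Krt18 signal less the Krt8 signal ran from 0.39 to 0.77 in session 3 controls, from 1.24 to 3.04 in BIRB796 and from 0.84 to 3.41 in stretch with BIRB796, so this ratio was higher on every inhibitor array than on any session 3 control. Other sessions overlapped the inhibitor range: the ratio ran from 0.26 to 0.99 in session 1 controls. Under stretch it ran from 0.70 to 1.905 in session 1 and from -1.045 to 1.922 in session 2. How often other gene pairs part this way was not computed.

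Krt8 and Krt18 are neighbours on chromosome 7 with 0 protein-coding genes between them in RefSeq's rat assembly GRCr8, and 26 lie between Krt7 and Krt8. The 250 bases upstream of their annotated starts are shown because these neighbours had different values under the inhibitor. Krt8 is at chr7:135010340-135010589 on the minus strand and Krt18 at chr7:135035918-135036167 on the plus strand, each written 5′ to 3′ along its gene from RefSeq, and capitals mark matches to the motifs searched.
Krt8: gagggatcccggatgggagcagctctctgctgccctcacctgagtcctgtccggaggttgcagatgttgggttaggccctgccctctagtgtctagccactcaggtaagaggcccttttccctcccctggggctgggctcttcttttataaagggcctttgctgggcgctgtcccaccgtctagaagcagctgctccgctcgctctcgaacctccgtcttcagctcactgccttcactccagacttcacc
Krt18: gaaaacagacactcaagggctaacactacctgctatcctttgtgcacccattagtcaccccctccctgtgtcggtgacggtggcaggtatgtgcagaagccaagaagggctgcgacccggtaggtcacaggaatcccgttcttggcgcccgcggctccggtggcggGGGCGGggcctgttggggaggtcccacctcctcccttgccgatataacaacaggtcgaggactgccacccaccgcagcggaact
The motifs searched on both strands were AP-1 (TGANTCA), TEAD (GGAATG) and the GC box (GGGCGG). Krt18 held 1 GC box, at -84 from the start, and Krt8 held none of the 3 motifs. Among the 6 members with a window in the table (Krt8, Krt18, Upk3b, Upk1b, Wt1 and Lrrn4), AP-1 was in 0, TEAD in 2 (Upk1b at -178 and Lrrn4 at -214) and the GC box in 1, against 6.3%, 12.1% and 30.5% of 33469 windows of the same length. The GC content was 60.0% for Krt8 and 62.0% for Krt18, beside a median of 51.2% over all windows. A match is a stretch of letters and was not tested as a binding site.

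**Figure D2:**
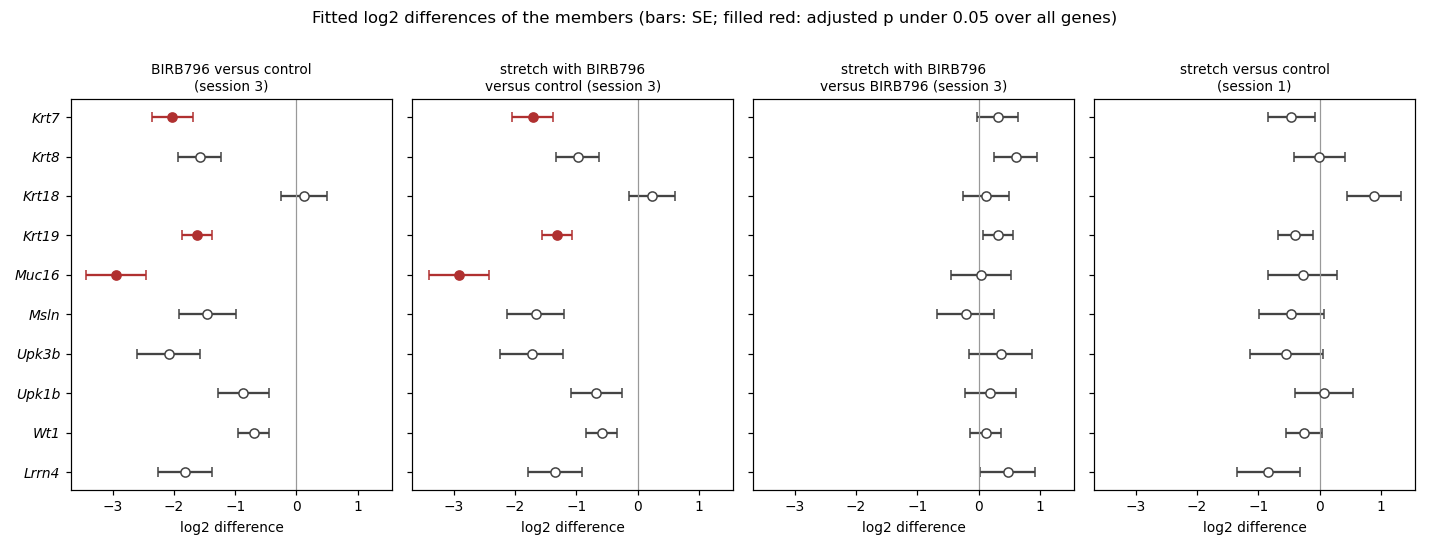
Fitted log2 differences of the 10 members (points) with SE (bars) in 4 comparisons, filled red where the adjusted p over all genes was under 0.05. Krt7, Krt19 and Muc16 are called in both comparisons of inhibitor arrays with controls, none is called between the inhibitor groups, and the stretch panel is a description for which no test is given.

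Muc16, the membrane mucin that Msln binds, was read by a dim probe that was well above background on 11 of 22 arrays. It stood at -5.63, -5.73, -6.28 and -6.44 in control replicates 4 to 7, all above background, at -9.32, -9.77, -7.31 and -9.48 in BIRB796, where only replicate 3 was above background, and at -9.87, -7.85, -8.56 and -9.45 in stretch with BIRB796, where 0 of 4 were. The inhibitor arrays did not overlap with the controls. In BIRB796 the call (limma, adjusted p = 0.0260) rests on a group with 1 of 4 arrays measured above background, so its log2 difference of -2.95 is not read as a size. In stretch with BIRB796 (limma, adjusted p = 0.0109) an approximate 2.86-fold lower level is given for the main background correction only. It sets means of normalized log2 values, -6.02 in controls, against a background level of -7.53 from each array's dimmest probe above background. A probe not above background can exceed that level, as Muc16 did in control replicate 3 (-6.39 against -6.43). The 2.86-fold value is thus not a strict bound. The size rests on the background correction, and this value does not hold under another: with normexp and an offset the log2 differences were -0.52 in BIRB796 and -0.56 in stretch with BIRB796.

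Msln, cleaved from a precursor and a common mesothelial antigen, stood at 2.11, 2.12, 2.36 and 1.16 in control replicates 4 to 7, at -0.38, 0.13, 1.31 and 0.87 in BIRB796 and at -0.57, 0.67, 0.56 and 0.44 in stretch with BIRB796. BIRB796 replicate 3 overlapped with control replicate 7, and every stretch with BIRB796 array was below every control. The differences were -1.45 ± 0.46 (limma, adjusted p = 0.166) and -1.66 ± 0.46 (adjusted p = 0.0637).

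The uroplakins are membrane proteins of the urothelium that mesothelial cells also carry. Upk3b stood at -1.81, -2.48, -2.52 and -3.16 in control replicates 4 to 7, at -5.13, -5.56, -3.13 and -4.51 in BIRB796 and at -5.54, -3.22, -3.55 and -4.59 in stretch with BIRB796. BIRB796 replicate 3 lay just above control replicate 7, and the other inhibitor arrays lay below all controls. Its differences of -2.09 ± 0.51 and -1.73 ± 0.51 did not pass the test (limma, adjusted p = 0.0728 and 0.0795). Upk1b, itself a tetraspanin, stood at 2.49, 2.14, 2.12 and 1.85 in control replicates 4 to 7, at 0.73, 0.90, 2.32 and 1.20 in BIRB796 and at 0.85, 1.84, 1.76 and 1.477 in stretch with BIRB796. Its BIRB796 replicate 3 was as high as the controls, and the differences were -0.87 ± 0.41 and -0.67 ± 0.41 (adjusted p = 0.391 and 0.440). Another, dimmer Upk1b probe gave -0.59 and -0.48.

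Wt1 had the tightest session 3 controls, at 1.37, 1.27, 1.38 and 1.27 in replicates 4 to 7, against 0.01, 0.70, 0.92 and 0.84 in BIRB796 and 0.04, 1.06, 0.95 and 0.87 in stretch with BIRB796. No inhibitor array reached a control, and the differences of -0.70 ± 0.26 and -0.59 ± 0.26 did not pass after adjustment over all genes (limma, adjusted p = 0.236 for both). The 2 other Wt1 probes gave -0.83 and -0.93 in BIRB796 and -0.72 for each in stretch with BIRB796. Lrrn4, a leucine-rich repeat membrane protein found in mesothelium, stood at -0.81, -1.32, -1.28 and -1.93 in control replicates 4 to 7, at -3.63, -3.91, -1.999 and -3.09 in BIRB796 and at -3.77, -1.93, -2.04 and -2.98 in stretch with BIRB796. All BIRB796 arrays were below every control, and stretch with BIRB796 replicate 2 met control replicate 7. The differences of -1.82 ± 0.45 and -1.35 ± 0.45 did not pass the test (adjusted p = 0.0726 and 0.111).

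Counted over the members, 6 of 10 had every BIRB796 array below every session 3 control (Krt7, Krt8, Krt19, Muc16, Wt1 and Lrrn4), where 5.30% of all genes did. In stretch with BIRB796 another 6 of 10 did (Krt7, Muc16, Msln, Upk3b, Upk1b and Wt1), against 8.40% of all genes. Krt7, Muc16 and Wt1 met both, as 3.12% of all genes did. Muc16 enters these counts with 1 of 4 BIRB796 arrays and 0 of 4 stretch with BIRB796 arrays above background. It passed the filter mainly through control and stretch arrays, so its place in them is no support. In stretch with BIRB796 versus control, 3 of 10 members were called, all lower, against 459 of 23262 genes called lower (1.97%) and 693 called in either direction (2.98%, with 1.01% higher). The median of the members was -1.33, beside 0.04 for all genes. Both comparisons use the same 4 session 3 controls, so their values are set side by side and not counted as separate evidence.

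The calls rest on few arrays. In BIRB796 versus control 0 members were called without control replicate 4, 5 or 6 or without BIRB796 replicate 1 or 2, when 0 genes at all were called, and 1 was called without BIRB796 replicate 4. Without control replicate 7 or stretch with BIRB796 replicate 1, 6 members were called, and 5 without BIRB796 replicate 3. Calls over all genes moved too in these fits, to 866 (3.72%), 297 (1.28%) and 123 (0.529%). In stretch with BIRB796 versus control, 1 member was called without control replicate 4, 5 or 6, 2 without stretch with BIRB796 replicate 1 or 4, and 5 without control replicate 7, when 1824 genes (7.84%) were called. The members' differences kept their sign in each of these fits, apart from Krt18.

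Slides split the groups unevenly, so the members were also compared on single slides. BIRB796 replicates 2 to 4 were all on slide 9, which held no control. Control replicates 5 and 6 were on slide 7, which held no inhibitor array. Slide 6 alone let BIRB796 without stretch be compared with a control on the same slide, so for BIRB796 replicates 2 to 4 slide and inhibitor cannot be told apart directly. Slide 6 held control replicate 4, BIRB796 replicate 1 and stretch with BIRB796 replicate 1, and the medians of the members' log2 differences there were -2.30 for BIRB796 less control and -2.31 for stretch with BIRB796 less control, with 9 of 10 negative in each. Slide 8 held control replicate 7 and stretch with BIRB796 replicates 2 and 3, and its median was -0.24 with 8 of 10 negative. Control replicate 4 was the highest session 3 control for 8 members and control replicate 7 the lowest for 9, so the slide values differ in the control as well. With slide as a random block (correlation 0.315) Krt19 was the member called in BIRB796, and with slide as a fixed block 0 members were called in either comparison.

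Adding stretch to the inhibitor brought no call among the members. In stretch with BIRB796 versus BIRB796 the differences ran from -0.21 ± 0.46 for Msln to 0.60 ± 0.36 for Krt8, and 0 of 10 members were called. Their median was 0.25 with 9 of 10 positive, beside a median of 0.01 and 47.3% negative over all genes. Limma called 0 of 23262 genes (0%) in this comparison, with 916 at an unadjusted p under 0.05, none of them a member. On slides 6 and 9, which held both groups, the medians of the members were 0.00 and 0.01. A p above the threshold does not show that stretch had no effect on these genes in the inhibitor.

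Stretch without the inhibitor can be set against controls of the same session in session 1 alone. There Krt7 stood at -1.39, -1.35 and -0.61 in stretch replicates 1 to 3 and at -0.59, -0.34 and -1.03 in control replicates 1 to 3, a difference of -0.46 ± 0.39. Krt19 stood at -0.85, -0.69 and -0.77 under stretch and at -0.28, -0.53 and -0.32 in controls, the stretch arrays being below every control, with a difference of -0.40 ± 0.29. Krt18 went the other way, at 0.41, 0.41 and 0.78 under stretch and -0.06, -0.20 and -0.81 in controls, and its difference of 0.89 ± 0.43 was the largest positive one among the members. Lrrn4 had the lowest difference, at -0.84 ± 0.52, and Krt8 stood at 0.00 ± 0.41. The remaining members lay between -0.54 (Upk3b) and 0.08 (Upk1b).

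Over the 10 members the median stretch difference was -0.34 with 8 negative, beside 0.08 and 37.3% of all genes. These values describe the contrast on which the list is taken to have been selected, and nothing is read from them. Limma called 0 of 23262 genes (0%) in this comparison, with 2348 at an unadjusted p under 0.05. That fit had no term for the slides that control and stretch arrays shared, and with slide as a random block 189 genes passed (0.812%). By slide, the medians of stretch less control were -0.27 on slide 1, -0.82 on slide 2 and 0.25 on slide 3, so the members were lower on 2 slides and higher on the third. Stretch replicate 3 was the highest of the session 1 stretch arrays for 7 members. Over all arrays, 0 genes passed in this comparison with the scan session as a term. With a term for the array set instead, which joins sessions 2 and 3 and so sets session 2 stretch arrays against session 3 controls, 2078 of 23256 genes passed (8.94%).

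The 4 stretch arrays of session 2 had no control beside them, and the members spread far among them. Krt7 stood at -0.19 and -0.21 in stretch replicates 4 and 5, at -1.66 in replicate 6 and at -5.01 in replicate 7. Upk3b stood at -0.52, -0.54, -2.43 and -7.12, the last not well above background, and Msln at 3.14, 3.11, 1.36 and -1.74. Replicates 4 and 5 held the highest level of these 3 genes on any array, and replicate 7 the lowest. Stretch replicate 7 was the lowest of the 7 stretch arrays for 8 of 10 members, all but Krt18 and Krt19, and lay below all 4 BIRB796 arrays for 5. The mean over the members was -0.15, -0.18, -1.20 and -3.46 on these arrays, and -1.34, -1.29 and -0.58 in session 1. Replicate 7 is also the array with the weakest signal and the fewest probes above background, and the part of signal strength in its low values was not tested.

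**Figure D3:**
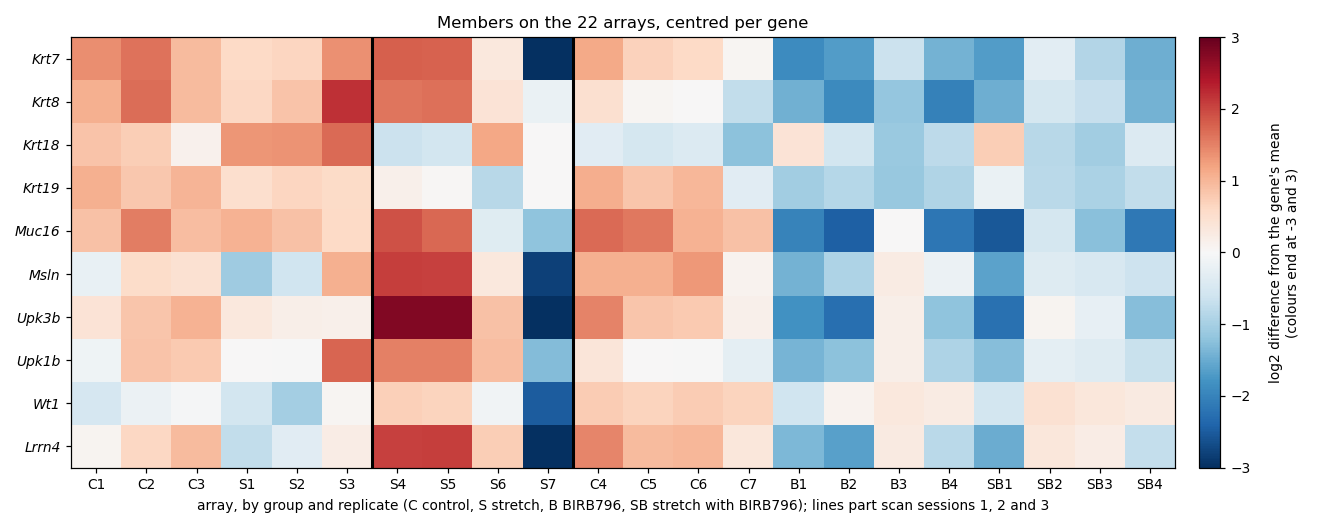
Log2 level of each member (rows) on each array (columns), as the difference from that gene's mean over the 22 arrays, with lines between the scan sessions. Stretch replicate 7 is dark blue for Krt7, Upk3b and Lrrn4, stretch replicates 4 and 5 are red for most members, the BIRB796 groups are blue for most members, and the Krt18 row departs from the rest.

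The members' levels went up and down together from array to array, apart from Krt18. Over the 18 arrays of sessions 1 and 3, centred per session, each member's Pearson correlation with the mean of the other 9 was 0.97 for Krt7, 0.93 for Lrrn4, 0.91 for Upk3b, 0.90 for Krt8 and Muc16, 0.88 for Msln, 0.79 for Upk1b, 0.78 for Wt1, 0.73 for Krt19 and -0.36 for Krt18. Centred per session and group, which takes out the difference between groups, the values were 0.91 for Krt7 and Lrrn4, 0.85 for Upk1b, 0.63 for Wt1, 0.03 for Krt19 and -0.43 for Krt18. Krt19 thus followed the others between groups and not among arrays of a group. The points share slides, sessions and the scaling of each array, and the correlations are a description with no test.

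**Figure D4:**
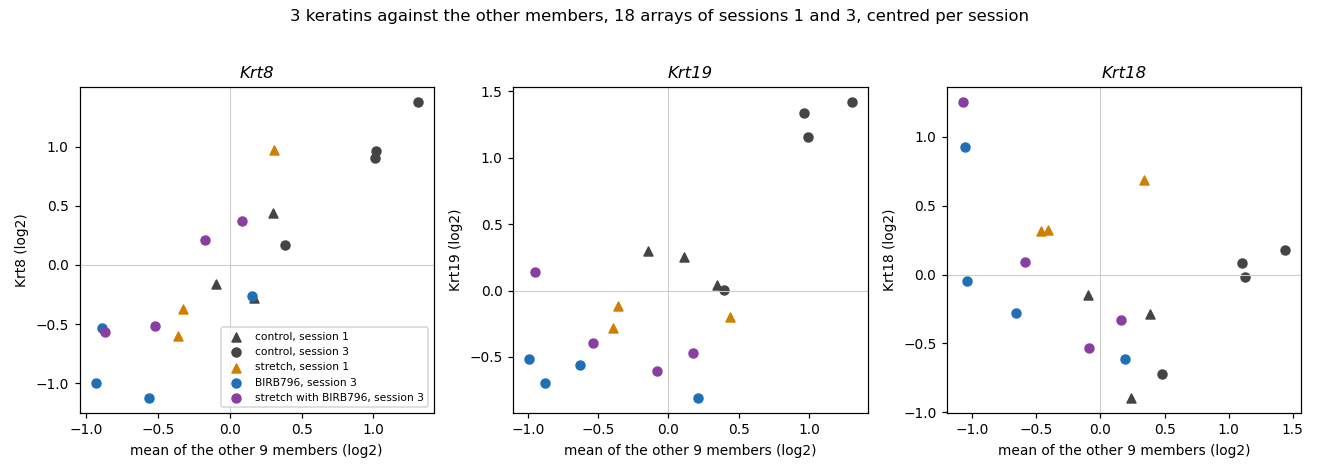
Log2 level of Krt8, Krt19 and Krt18 against the mean of the other 9 members on the 18 arrays of sessions 1 (triangles) and 3 (circles), centred per session and coloured by group. Krt8 climbs with the other members, Krt19 separates session 3 controls from the inhibitor arrays with little slope within them, and Krt18 is high where the others are low on 2 inhibitor arrays.

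Outside the members, the 5 genes most like the members' mean over these 18 arrays, among 23246 compared, were TC613234 (r = 0.980), Slc16a11 (0.974), Igfbp2 (0.968), ENSRNOT00000037641 (0.964) and Avpr1a (0.964). The 5 are outside the members by name, and whether TC613234 or ENSRNOT00000037641 is a transcript of a member was not tested. TC613234 is a sequence that the array annotation describes as part of a type II keratin, the class of Krt7 and Krt8. Slc16a11 is a monocarboxylate transporter family member, Igfbp2 binds insulin-like growth factors and Avpr1a is a vasopressin receptor. The log2 differences of the 5 in BIRB796 versus control were -2.22 ± 0.38, -1.81 ± 0.34, -2.01 ± 0.51, -1.29 ± 0.27 and -1.88 ± 0.50 in the order listed. TC613234, Slc16a11 and ENSRNOT00000037641 passed the test (limma, adjusted p = 0.0260, 0.0296 and 0.0467). All 5 were picked for following the members over the same arrays, so these differences are no separate result.

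The calls in this and the following lists stand beside the shares of all genes. In BIRB796 versus control 0.400% were called lower and 0.211% higher, and in stretch with BIRB796 versus control 1.97% and 1.01%. Of 23 genes of the epicardium and mesothelium outside the members, 1 fell in BIRB796, the sialomucin Podxl, by 1.17 ± 0.21 (limma, adjusted p = 0.0286). The median of the list was -0.60 with 18 negative, where 47.9% of all genes were negative. With stretch added, Podxl fell by 1.53 ± 0.21 (adjusted p = 0.00565) and the matrix glycoprotein Efemp1 by 0.94 ± 0.23 (adjusted p = 0.0434), while the tendon transcription factor Scx rose by 0.80 ± 0.16 (adjusted p = 0.0214), and the median was -0.65. The lowest values in BIRB796, named after they were seen, were those of the secreted protease inhibitor Slpi (-2.57 ± 0.73; adjusted p = 0.114) and the zinc finger protein Bnc1 (-2.26 ± 0.61; adjusted p = 0.0980), and neither passed. In the retinoic acid pathway, which the epicardium supplies to the developing heart, 1 of 15 genes fell in BIRB796, the retinol carrier Rbp4, by 1.27 ± 0.23 (adjusted p = 0.0262). With stretch added, 3 of 15 fell relative to control, among them the retinal reductase Dhrs3 by 0.95 ± 0.17 (adjusted p = 0.0133) and Rbp4 by 1.00 ± 0.23 (adjusted p = 0.0328).

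Of 19 genes of epithelial junctions and mesenchymal transition, 0 passed the test in BIRB796. With stretch added, the tight junction claudins Cldn15 and Cldn1 fell, by 1.59 ± 0.28 and 0.87 ± 0.22 (limma, adjusted p = 0.0119 and 0.0434), and the mesenchymal filament gene Vim rose by 0.57 ± 0.14 (adjusted p = 0.0366), with a list median of -0.03. None of 12 other uroplakins, mucins and keratins passed in either comparison, their medians being 0.04 and -0.21.

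Markers of other cell types moved with the same groups, and their part in the members' differences was not tested. Endothelial markers were negative in 10 of 10 genes in BIRB796, against 47.9% of all genes, with 0 called. In stretch with BIRB796 5 of 10 fell, where 1.97% of all genes were called lower. Among them were the adhesion molecules Esam (-1.65 ± 0.23; limma, adjusted p = 0.00565) and Pecam1 (-1.31 ± 0.26; adjusted p = 0.0194). The summed endothelial level relative to the 75th percentile was 4.62 to 6.27 in session 3 controls, 3.39 to 4.14 in BIRB796 and 2.46 to 3.33 in stretch with BIRB796. All 9 macrophage markers were negative in BIRB796 and in stretch with BIRB796 versus control, with medians of -0.50 and -0.90. Over all genes 47.9% and 43.9% were negative. Of the 9 macrophage markers 0 passed in BIRB796 and 2 fell in stretch with BIRB796, Mrc1 by 1.31 ± 0.29 (limma, adjusted p = 0.0281) and Cd68 by 1.13 ± 0.28 (adjusted p = 0.0458). Their sums were 127 to 237, 121 to 164 and 108 to 127 in the 3 groups.

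Smooth muscle markers had a positive median of 1.03 in BIRB796 and 1.06 in stretch with BIRB796, where Tagln rose by 1.22 ± 0.29 (limma, adjusted p = 0.0398), the single call among 8 genes. Their sums were 53.9 to 69.9 in session 3 controls, 82.9 to 105 in BIRB796 and 81.7 to 130 in stretch with BIRB796. No fibroblast marker of 9 was called in either. Markers of other epithelia, which share keratins with the epicardium, summed to 0.41 to 0.47 in session 3 controls, 0.27 to 0.47 in BIRB796 and 0.36 to 0.41 in stretch with BIRB796, none of 12 was called, and Cldn4 was above background on no array of session 3. The members themselves summed to 9.58 to 15.5, 4.60 to 10.4 and 4.99 to 8.51 in the same groups. The bright probes of Msln, Upk1b and Wt1, none of them called, weigh most in this sum. In control replicate 4 they gave 4.31, 5.63 and 2.58, while the called Krt7, Krt19 and Muc16 gave 0.56, 0.83 and 0.02.

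**Figure D5:**
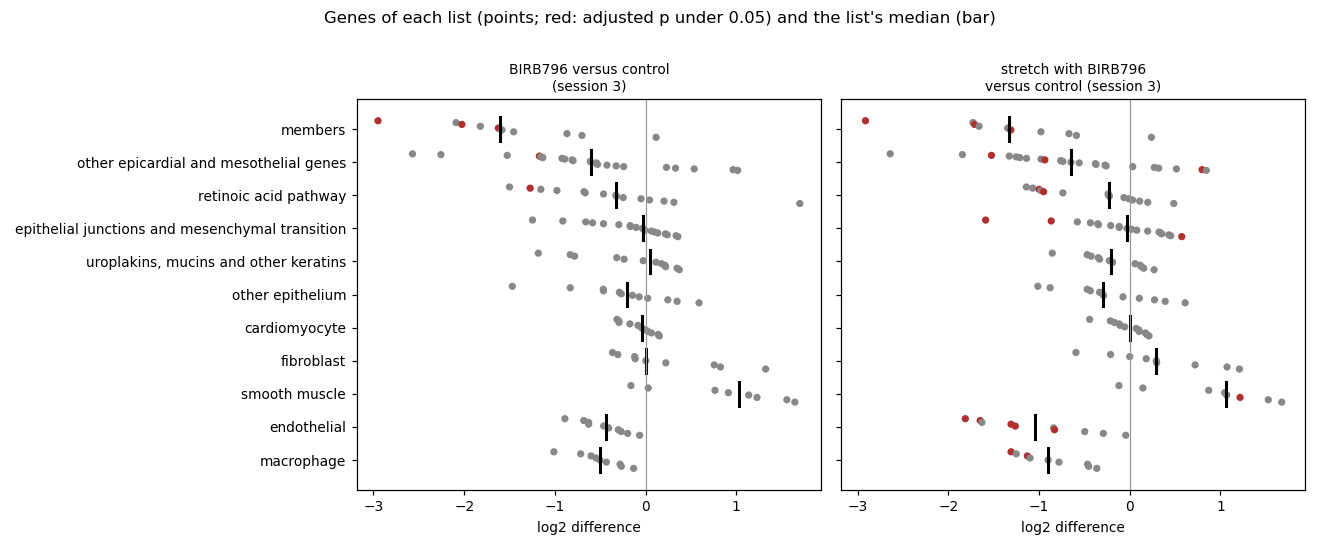
Log2 differences of single genes (points, red where the adjusted p over all genes was under 0.05) and the median of each list (bar) in BIRB796 versus control and in stretch with BIRB796 versus control. The members have the lowest median of the lists shown in both, at -1.60 and -1.33, and smooth muscle genes the highest, at 1.03 and 1.06.

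The difference between the stretch effect in the inhibitor and that without it joins both sessions. It was positive for 9 of 10 members, from 0.12 ± 0.63 for Upk1b to 1.31 ± 0.68 for Lrrn4, and -0.77 ± 0.57 for Krt18. The share of all genes with a positive value is not given here, so the count of 9 is not read as a result. Since this difference contains the stretch contrast on which the list is taken to have been selected, no p is given for the members. Limma called 0 of 23262 genes (0%) for this difference.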

How the data were processed

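Per the labels' protocols, total RNA of 22 engineered tissues was Cy3-labelled for Agilent rat arrays read in 1 colour. Values in the deposited scanner output are linear intensity per spot, background-subtracted and spatially detrended within an array but not scaled between arrays, and flags for outlying, saturated and above-background spots, per the file headers. The deposited table of log2 values has no stated baseline (column medians -0.11 to 0.40). Set against the scanner values, centred per probe, each of its 22 columns matched its own array best, with a slope of 1.00, which gives scale and direction. It served as an alternative.

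Control and outlier spots were left out (293 probe values), and log2 signals were averaged per probe and set relative to the array's 75th percentile over 30367 probes. The filter kept a probe if 4 or more arrays showed it well above background, and the probe with the highest mean stood for a gene. Names came from RefSeq through the accession for 17990 probes, by symbol for 2367, by synonym for 615 and from the file for 9395.

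Limma 3.58.1 in R 4.3.3 was fitted on the 18 arrays of sessions 1 and 3 with group and session as terms (13 residual degrees of freedom), with Benjamini-Hochberg adjustment over 23262 genes, two-sided, and a call at an adjusted p under 0.05. The fit was tested on simulated data for BIRB796 versus control, with 200 of 23256 genes changed. It recovered 53.5% of them at a log2 change of 1, with 8 false calls, and 79.5% at a change of 2, with 7. Genes that change by these amounts can thus go uncalled. Session 2, which holds no control, entered the alternatives and descriptions. No array with stretch and BIRB796 measured Muc16 above background, so an approximate fold is given there. It sets the control mean against that group's mean after each array's value was raised, where lower, to its dimmest probe above background. Same-numbered control and stretch arrays of session 1 shared a slide, and their deviations correlated at 0.506, 0.148 and 0.570. For number 2 the best match was another array, and a shared slide and a shared culture cannot be told apart here. In session 1 the numbers therefore mark slides, the main fit had no term for them, and the slide and replicate blocks were alternatives. The replicate block also joined inhibitor arrays of session 3 to same-numbered arrays of other slides and of session 1, where the number marks no shared slide. The members, lists and tests were chosen with earlier results of these data known. Named genes were all members, the 5 genes most like them, and in each list the 2 called genes with the smallest p in each direction. Promoter windows are RefSeq's, assembly GRCr8.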

Additional observations from a re-analysis of the deposited data

Results flagged for a closer look

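In groups of 4 to 10 arrays, 40 sets of member values were searched for a highest or lowest array far from the rest, a rule that chance meets in about 1 of 20 groups, and 2 sets met it. Krt7 in stretch replicate 7 stood at -5.01, against -1.66 to -0.20 in the other stretch samples. Krt19 in control replicate 7 stood at -1.68, against -0.53 to -0.27 in the other controls.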

How the results depend on the processing

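The groups hold 3 or 4 arrays in a session, and brightness over background limits Muc16, above background on 11 of 22 arrays. Genes called in BIRB796 versus control came to 142, and to 0 with all 22 arrays under a session term, 0 under an array set term (sessions 2 and 3 as 1 set) and 0 with stretch replicates 4 and 5 apart, 460 in session 3 alone, 22 with slide as a random and 3 as a fixed block, 216 with median scaling (138 higher and 78 lower, against 49 and 93), 34 with quantile scaling (21 and 13), 90 with normexp, 215 among probes above background on every array, and 0 to 866 leaving out an array. Members called came to 3, and to 0 in the 3 fits with all arrays, 1 and 0 with the slide blocks, 1 with the replicate block and 0 to 6 leaving out an array. For stretch with BIRB796 versus BIRB796 the count of 0 genes became 11 in session 3 alone, 2 and 1 with the slide blocks, 1 with the replicate block and 0 to 1 leaving out an array. For stretch with BIRB796 versus control the 693 genes became 23, 3 and 3 with all arrays, 1785 in session 3 alone, 31 with slide as a fixed block, 158 with the replicate block, 155 with quantile scaling and 73 to 1824 leaving out an array. Its 3 members became 0, 0 and 0 with all arrays, 0 with slide fixed, 1 with the replicate block, and 1 to 5 leaving out an array. For stretch versus control the 0 genes stayed at 0 with all arrays under a session term, and became 2078 under an array set term and 2337 with replicates apart (8.94% of genes for the first), 189 and 14 with the slide blocks, 149 with quantile scaling, 136 with normexp, 26 among probes above background on every array and 0 to 314 leaving out an array. The difference of stretch effects gave 3 genes with quantile scaling and 0 to 6 leaving out an array. Krt18 turned sign under the replicate block, to -0.33 in BIRB796 and -0.21 in stretch with BIRB796, and leaving out an array its differences ran from -0.26 to 0.43 for stretch with BIRB796 versus BIRB796 and from -0.14 to 0.46 versus control. The 9 other members kept their sign in BIRB796 and in stretch with BIRB796 versus control under all 31 or 32 alternatives. The causes were not tested.

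Same-numbered BIRB796 and stretch with BIRB796 arrays correlated at 0.530, 0.015, 0.085 and 0.076, and replicates 1 and 4 also shared a slide, while numbers 2 and 3 did not, so the numbers were not taken to pair these groups, and the replicate block took the stretch versus control count from 0 to 0. Slide as a fixed block and the fit with stretch replicates 4 and 5 apart under an array set term were chosen after seeing the data.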
